A study of Homo sapiens with 12 samples.

Results

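Solute carrier (SLC) genes encode membrane transporters, and their mRNAs were examined in RNA recovered with Argonaute 2 (AGO2) from K562 cells with and without added miR-143. Members were all rows with a single SLC gene name, 2 names aside, that were selected on a mean of 1 FPKM or more over the 4 deposited averages. FPKM divides the fragments of a gene by its transcript length in kilobases and by the size of the library. This selection left 129 genes from 41 SLC families, out of 335 rows with such a name and 61782 rows in all. Of the other SLC rows, 152 were listed at 0 in each group and 52 lay above 0 with a mean under 1 FPKM. The members just inside the limit were SLC7A11, with a mean of 1.08 FPKM, and SLC17A5, with 1.00 FPKM, and the genes just outside were SLC2A4 and SLC24A3, each with 0.96 FPKM. Among the members, 9 reached 1 FPKM in a single group and so entered through that group alone. A further 18 rows joined an SLC gene with overlapping genes and were not counted, among them the row of the mitochondrial phosphate carrier SLC25A3 with SNORA53, at 468.5, 142.7, 183.1 and 79.2 FPKM in the group order given below.

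K562 is a human erythroleukemia cell line, and per the study's methods the line carried an inducible C/EBPα. A lentivirus had brought either pLV-miR-143 or pLV-control into the cells. The methods give puromycin selection or cell sorting after infection, without naming which was used here. Puromycin in the medium was common to all groups. RNA was recovered with AGO2 antibody (AGO) or with immunoglobulin of no set target (IgG, a mock precipitate), giving 12 samples in 4 groups of 3: control_IgG, control_AGO, miR143_IgG and miR143_AGO. The authors deposited 1 average per group, so no spread between replicates is known, no difference could be tested, and every ratio below describes these averages. RNA from before the precipitation was not analysed here, so that more AGO2 binding and more mRNA cannot be told apart between the cell populations. Values are listed in the order control_IgG, control_AGO, miR143_IgG, miR143_AGO unless stated otherwise.

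AGO2 carries microRNAs and pairs them, mainly through the seed at their 5′ end, with sites that lie mostly in the 3′ untranslated region (UTR) of mRNAs. An AGO2 precipitate therefore holds mRNAs bound by any microRNA of the cell, and a mock precipitate shows what is recovered without the antibody's specificity. SLC mRNAs are translated mostly at the endoplasmic reticulum, apart from those of the SLC25 family of mitochondrial carriers, whose proteins are made in the cytosol and imported. In erythroid cells SLC proteins take up the amino acids, iron, heme precursors and vitamins that hemoglobin production and rapid growth require.

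The sequences that carry the miR-143 comparison are the mature microRNA and some of its best matches among the members. The first line gives hsa-miR-143-3p (RefSeq, GRCh38.p14, chr5:149428978-149428998, plus strand) with the seed, bases 2 to 8, in capitals. The other lines give windows of member 3′ UTRs around an 8mer, the 8 letters TCATCTCA that match the whole seed and end in A, with the site in capitals. They were read from GRCh38 with the GENCODE 29 annotation, on the strand of the transcript.
hsa-miR-143-3p: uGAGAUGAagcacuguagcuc
SLC35A4: ctgggcttgacTCATCTCAgggaatgtagc
SLC39A10: taggacagtccTCATCTCAttgcttggccc
SLC38A2: gcactggactgTCATCTCAttcttgtacaa
The site of SLC35A4 lies at chr5:140568791-140568798 (plus strand), that of SLC39A10 at chr2:195736797-195736804 (plus) and that of SLC38A2 at chr12:46359850-46359857 (minus). All these sites are in annotated 3′ UTRs, from 647 bases past the stop codon in SLC35A4 to 1756 bases in SLC39A10.

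SLC mRNAs took a larger share of the protein-coding FPKM in the AGO precipitates than in the mock precipitates of either cell population. Their FPKM summed to 1997, 2425, 1702 and 2321. As a share of the FPKM of all protein-coding rows with 1 name this was 0.893% and 0.782% in the mock precipitates and 1.57% and 1.52% in the AGO precipitates. Of the FPKM of all rows, noncoding and joined rows included, it was 0.0705%, 0.658%, 0.0656% and 0.564%. Of the coding FPKM, without SLC1A5 and SLC40A1, the members with the highest means, the shares were 0.850%, 1.38%, 0.734% and 1.24%. Genes of the plasma membrane class went from 0.463% to 0.965% of coding FPKM between IgG and AGO in control cells and from 0.407% to 0.925% in miR-143 cells. The mitochondrial class went from 0.272% to 0.330% and from 0.204% to 0.359%. Its summed FPKM, however, fell from 607 to 510 in control cells and rose from 443 to 549 in miR-143 cells. The coding FPKM summed to 223540, 154900, 217520 and 153110, lower in the AGO precipitates. A share could thus rise while the summed FPKM of a class fell.

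**Figure D1:**
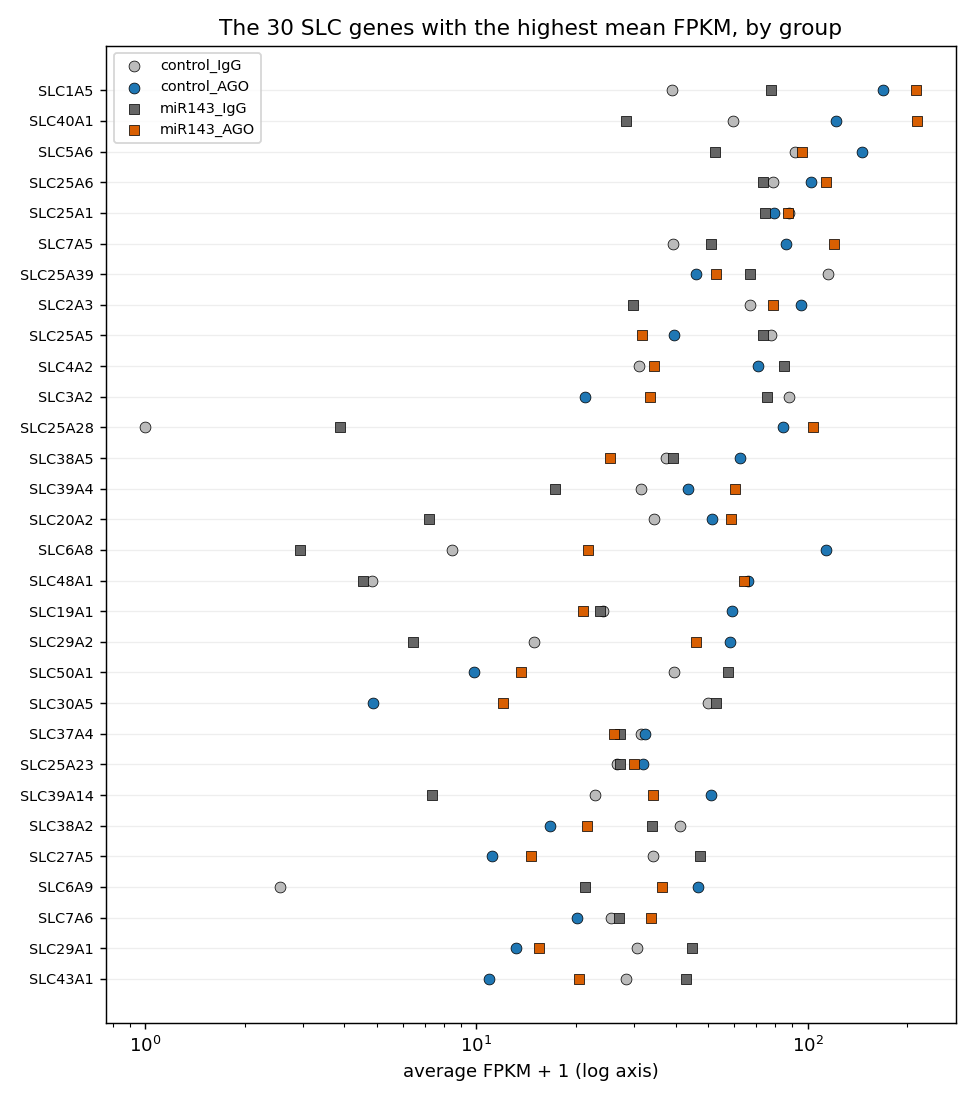
Average FPKM plus 1 (log axis) of the 30 SLC genes with the highest mean, with 1 point per group. SLC25A28 and SLC48A1 show AGO points far to the right of both mock points, SLC30A5 and SLC50A1 show the opposite, and SLC25A1 and SLC37A4 show 4 points close together.

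SLC1A5, the main glutamine and neutral amino acid carrier of dividing cells, had the highest mean, at 38.1, 168, 76.8 and 212 FPKM. SLC40A1, the iron exporter ferroportin, followed at 58.6, 121, 27.4 and 213 FPKM, and SLC5A6, a carrier of biotin and pantothenate, at 90.8, 145, 51.7 and 95.1 FPKM. For SLC1A5, SLC40A1 and SLC5A6 both AGO averages lay above both mock averages. The others among the 10 highest were the ADP/ATP carriers SLC25A6 and SLC25A5, the citrate carrier SLC25A1, SLC25A39, which brings glutathione into mitochondria, the amino acid carrier SLC7A5, the glucose transporter SLC2A3 and the chloride-bicarbonate exchanger SLC4A2. SLC25A1 varied least of these, between 73.3 and 86.8 FPKM. Reads of SLC25A4, SLC25A5 and SLC25A6, of SLC2A3 and SLC2A14, and of SLC6A8 and SLC7A5, which have near-identical paralogs or pseudogene copies, could have been split between copies by the counting.

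Low values were least certain in control_IgG. There 25 members were listed at 0, against 8 in miR143_IgG and 4 and 5 in the AGO precipitates. The product of FPKM and transcript length that marks the low end of each group's values, which falls as depth rises, was lowest in miR143_AGO. Relative to that group it stood at 12.6 in control_IgG, at 1.64 in miR143_IgG and at 1.09 in control_AGO. Of the members above 0 in control_IgG, 19 lay under 10 times that low end. The members that reached 1 FPKM in 1 group only were SLC25A30 (24.4 FPKM), SLC2A6 and SLC25A33 in control_IgG, SLC1A7, SLC24A1 and SLC35A5 in control_AGO, SLC7A14 and SLC47A1 in miR143_IgG and SLC35A3 in miR143_AGO. Erythroid markers were present, with GATA1 at 52.0 to 73.2 FPKM and KLF1 at 41.9 to 289 FPKM, while CD3E, ALB and PECAM1 were listed at 0 in each group and KRT8 was at 30.4 to 92.0 FPKM.

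AGO over IgG asks which mRNAs were recovered with AGO2 beyond the mock precipitate. Ratios were computed as log2 of (FPKM + 1) over (FPKM + 1), which understates the difference of low genes, and 2-fold means a log2 ratio of 1 or more, or of -1 or less. In control cells 51 of the 129 members (39.5%) were 2-fold higher in AGO, against 29.9% of the 9693 rows with a mean of 1 FPKM or more, and 34 members (26.4%) were 2-fold lower, against 33.5% of those rows. In miR-143 cells 40 members were 2-fold higher (31.0%, against 23.6% of all such rows) and 24 were 2-fold lower (18.6%, against 31.6%). The members had median log2 ratios of 0.42 (control) and 0.32 (miR-143), against 0.00 and -0.15 over all rows.

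This shift was also present where neither group was at 0. Of the 51 members 2-fold higher in control_AGO, 20 were listed at 0 in control_IgG, while in miR-143 cells 4 of 40 were listed at 0 in miR143_IgG. Of the 81 members at 1 FPKM or more in both groups of control cells 22 were higher and 23 lower (all rows 18.8% and 37.9%), and of the 91 such members in miR-143 cells 25 were higher and 16 lower (18.7% and 30.1%). Over rows above 0 in both groups, the median of 103 members was 0.01 against -0.58 for all such rows in control cells, and the median of 117 members was 0.30 against -0.24 in miR-143 cells. Among the 51 members with a mean of 10 FPKM or more, 15 were 2-fold higher and 15 lower in control cells, while miR-143 cells had 17 higher and 10 lower. Of all rows at that level, 25.4% were higher and 39.5% lower in control cells, with 22.6% and 36.2% for miR-143 cells. Groups were also scaled to an equal median, taken over rows with 1 name above 0 in all 4 groups. Then 62 members were 2-fold higher and 25 lower in control cells (all rows 36.8% and 25.7%). In miR-143 cells 41 were higher and 23 lower (25.5% and 29.9%). This did not centre all rows, whose median log2 ratios were then 0.27 and -0.06. With an equal upper quartile over the same 1-name rows, 58 were higher and 27 lower in control cells (35.1% and 27.3%). The miR-143 population then had 51 and 19 (29.6% and 26.0%).

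The mRNAs recovered with AGO2 were partly the same in both cell populations. In both populations 24 members (18.6%) were 2-fold higher in AGO, against 12.5% of all rows, and 10 (7.75%) were 2-fold lower, against 14.5%. Both AGO averages lay above both mock averages for 49 members (38.0%, against 22.8% of all rows) and below them for 26 (20.2%, against 27.2%). Across the 129 members the AGO over IgG log2 ratios of control and miR-143 cells, which share no samples, were correlated with a Pearson coefficient of 0.374 and a Spearman coefficient of 0.384. For the 51 members with a mean of 10 FPKM or more the values were 0.553 and 0.537, and for the 6993 coding rows that are not members they were 0.359 and 0.353. The genes of one precipitate share its libraries and are not independent, and these correlations are a description only.

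**Figure D2:**
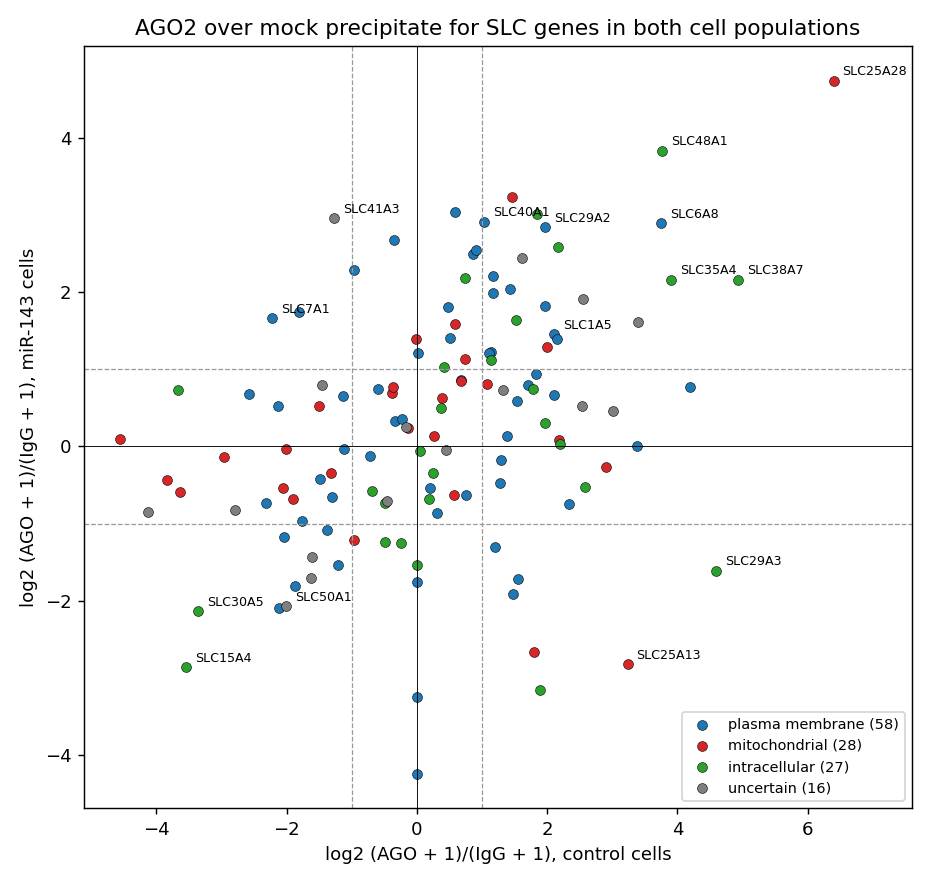
Log2 ratio of AGO over IgG, each FPKM plus 1, in control cells (horizontal) and miR-143 cells (vertical) for the 129 SLC genes, coloured by class, with dashed lines at 2-fold. The 24 genes of the upper right corner include SLC25A28, SLC48A1, SLC6A8 and SLC38A7, and the 10 genes of the lower left corner include SLC30A5, SLC15A4 and SLC50A1.

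Among the 24 members higher in both populations, SLC25A28 and SLC48A1 had the highest log2 ratios in miR-143 cells. SLC48A1 (chr12:47753916-47782753), which moves heme out of lysosomes, was at 3.85 FPKM in control_IgG and 3.54 in miR143_IgG, but at 65.0 in control_AGO and 63.5 in miR143_AGO. Its log2 ratios were 3.77 and 3.83, nearly the same in both populations. SLC25A28 (chr10:99610522-99620609), the mitochondrial iron importer mitoferrin-2, had mock averages of 0 (control_IgG) and 2.89 FPKM (miR143_IgG), and it reached 83.3 and 103 FPKM in the AGO precipitates. Its log2 ratio in miR-143 cells was 4.74, the highest of the 129 members there, and no fold is given against the 0 in control cells. Ferroportin (SLC40A1) had log2 ratios of 1.03 and 2.91, and its lower ratio in control cells went with a mock average of 58.6 FPKM, against 27.4 in miR-143 cells.

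The creatine transporter SLC6A8 was at 7.47 FPKM in control_IgG and 113 in control_AGO, and at 1.94 in miR143_IgG and 20.8 in miR143_AGO. Its log2 ratios were 3.75 and 2.89, although its AGO average was lower in miR-143 cells by a log2 ratio of -2.39. SLC29A2, a nucleoside transporter, was at 13.9, 57.3, 5.46 and 45.2 FPKM, with log2 ratios of 1.97 and 2.84. SLC35A4, of the nucleotide sugar transporter family, was at 0.305, 18.4, 3.94 and 21.1 FPKM, with log2 ratios of 3.90 and 2.16. SLC38A7, which exports glutamine from lysosomes, was listed at 0 and at 29.6 FPKM in control cells and was at 0.315 and 4.88 FPKM in miR-143 cells. The same side was taken by SLC30A7, which loads zinc into the secretory pathway (1.85 and 3.00), SLC38A10 (2.55 and 1.91), the light chain SLC7A8, listed at 0 in miR143_IgG and at 2.53 FPKM in miR143_AGO, and the vesicular glutamate transporter SLC17A7, listed at 0 in both mock precipitates and at 3.49 and 5.01 FPKM in AGO. In all, 7 of the 24 were listed at 0 in at least 1 mock precipitate.

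The 10 members lower in AGO in both populations were SLC3A2, SLC15A4, SLC20A1, SLC26A6, SLC27A5, SLC29A1, SLC30A5, SLC30A9, SLC43A1 and SLC50A1. SLC30A5 (chr5:69093646-69131069), which carries zinc into Golgi vesicles, was at 49.2 FPKM in control_IgG and 51.8 in miR143_IgG, and at 3.87 and 11.0 in the AGO precipitates, with log2 ratios of -3.37 and -2.14. SLC50A1, a sugar transporter of internal membranes and the cell surface, was at 38.7, 8.81, 56.4 and 12.7 FPKM (-2.02 and -2.07), and SLC20A1, a phosphate importer, at 15.9, 2.90, 12.7 and 2.20 FPKM (-2.12 and -2.09). For each of the 10 members both mock averages lay above both AGO averages. SLC15A4, the lysosomal histidine and peptide transporter, was at 13.6, 0.249, 8.96 and 0.374 FPKM (-3.55 and -2.86). The anion exchanger SLC26A6 was at 18.4, 4.28, 13.9 and 3.27 FPKM (-1.88 and -1.81). None of the 10 was listed at 0 in an AGO precipitate.

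The limit of 10-fold, which the study set for miR-143 against control cells, was also applied to AGO over IgG, on the scale of FPKM + 1. In control cells 9 members (6.98%) were 10-fold higher in AGO, against 4.48% of all rows, and 7 (5.43%) were 10-fold lower, against 5.1%. In miR-143 cells 2 members were 10-fold higher, SLC25A28 and SLC48A1 (1.55%, against 1.75% of all rows), and 1 was 10-fold lower (0.775%, against 4.03%). That gene, SLC7A14, was at 17.9 FPKM in miR143_IgG and listed at 0 in the other groups, so it entered the members through miR143_IgG alone. The other members past 10-fold in control cells were under 10-fold in miR-143 cells on this scale. The glycine transporter SLC6A9 was at 1.56, 45.7, 20.3 and 35.3 FPKM, and SLC10A3, a bile acid transporter relative, was at 1.34, 23.7, 5.54 and 19.0 FPKM. In both genes the ratio between the AGO averages was nearer to 1 than that between the mock averages. SLC22A23, of the organic ion transporter family, was at 1.25, 17.1, 7.43 and 10.6 FPKM, short of 10-fold on the scale with the pseudocount. On the low side, SLC25A11, which exchanges oxoglutarate for malate across the inner mitochondrial membrane, was at 37.0, 2.04, 11.0 and 6.95 FPKM. Without a pseudocount, over genes above 0 in both groups, 10 of 103 members were 10-fold higher in control cells (9.71%, against 4.0% of such rows) and 8 were 10-fold lower (7.77%, against 11.2%). In miR-143 cells 14 of 117 were higher (12.0%, against 5.32%) and 1, SLC15A4, was lower (0.855%, against 7.6%). The 14 included SLC6A8 and SLC38A7, and low genes such as SLC25A45 and SLC7A11, which were under 0.1 FPKM in miR143_IgG. The anion exchanger SLC26A11 was at 16.0 FPKM in control_IgG and between 1.02 and 2.56 FPKM in the other groups, 10-fold lower in control_AGO only without the pseudocount.

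Plasma membrane families were compared with the mitochondrial SLC25 members as the largest classes, with 58 and 28 genes. In control cells the median AGO over IgG log2 ratio was 0.55 for the plasma membrane class and 0.12 for the mitochondrial class, a difference of 0.42. In miR-143 cells the medians were 0.62 and 0.12, a difference of 0.51. Both differences were small beside the spread over genes, since the distance between the lower and upper quartile was 2.50 and 2.78 for the control cells, against 2.33 and 1.28 for the others. In both populations 11 plasma membrane genes (19.0%) were 2-fold higher and 5 (8.62%) lower, against 12.5% and 14.5% of all rows. The mitochondrial class had 3 higher (10.7%), namely SLC25A28, SLC25A44 and SLC25A45, and 0 lower. The 27 members of other internal membranes had medians of 0.74 and 0.03, and the 16 members of uncertain location -0.31 and 0.36.

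**Figure D3:**
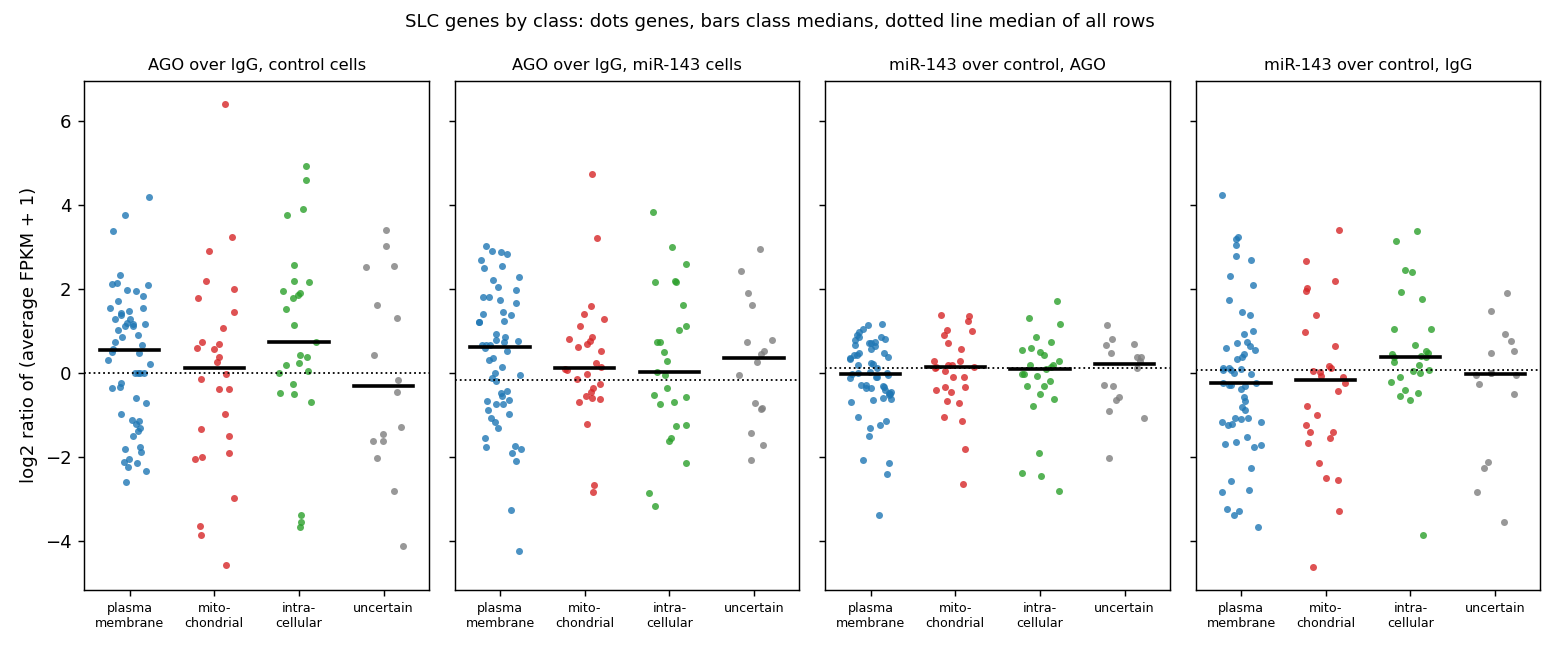
Log2 ratios of (FPKM + 1) for the SLC genes by class in the 4 comparisons, with a bar at each class median and a dotted line at the median of all rows. The classes overlap over most of their range, and the spread is narrowest in the comparison of the AGO precipitates.

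The mitochondrial carriers with high levels stood on both sides. SLC25A6 was at 77.9, 102, 72.4 and 113 FPKM, while its paralog SLC25A5 was at 76.5, 38.6, 72.5 and 30.6 FPKM. The log2 ratios were 0.38 and 0.63 for SLC25A6, and -0.97 and -1.22 for SLC25A5, so that these ADP/ATP carriers with nearly equal mock averages took opposite sides in both populations. SLC25A39 was at 114, 45.2, 66.3 and 51.9 FPKM (-1.32 and -0.35). SLC25A44, a carrier of branched-chain amino acids, was at 1.82, 6.73, 1.11 and 18.7 FPKM (1.45 and 3.22). SLC25A20, the carnitine-acylcarnitine carrier, was at 34.1 FPKM in control_IgG and between 2.31 and 3.49 FPKM in the other groups. In control_IgG alone SLC25A40, linked to mitochondrial glutathione, reached 13.3 FPKM, and it was listed at 0 in control_AGO. A list of 30 other nuclear-encoded mitochondrial membrane proteins, such as TOMM and TIMM import subunits, had median log2 ratios of -0.92 and -0.60. In both populations 1 gene of that list (3.33%) was 2-fold higher and 8 (26.7%) were lower, against 12.5% and 14.5% of all rows.

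Counts by role are to be read against the shares of all rows, which were 29.9% higher and 33.5% lower (control), 23.6% and 31.6% (miR-143), and 12.5% and 14.5% (both). Amino acid transporters (21 genes) had 11 members 2-fold higher and 6 lower in AGO in control cells, and 9 higher and 4 lower in miR-143 cells. In both populations 7 (33.3%) were higher and 2 (9.52%) lower. The partners of a heteromeric carrier took opposite sides. SLC7A5, the light chain of the main leucine carrier, was at 38.4, 85.2, 50.1 and 119 FPKM (1.13 and 1.23), and the heavy chain SLC3A2, which brings it to the cell surface, was at 87.1, 20.3, 74.2 and 32.4 FPKM (-2.05 and -1.17). For SLC7A5 both AGO averages lay above both mock averages, and for SLC3A2 both lay below. The light chain SLC7A6 differed little, with log2 ratios of -0.34 and 0.32. Of the glutamine carriers of the SLC38 family, SLC38A2 was at 40.1, 15.6, 32.9 and 20.6 FPKM (-1.30 and -0.65). SLC38A1 was at 53.9, 10.0, 3.35 and 1.61 FPKM (-2.32 and -0.74).

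Metal and heme transporters (19 genes) had 7 members 2-fold higher and 5 lower in control cells and 7 higher and 4 lower in miR-143 cells. In both populations SLC40A1, SLC48A1, SLC39A14, SLC30A3 and SLC30A7 were higher, and SLC30A5 and SLC30A9 were lower. The zinc and iron importer SLC39A14 was at 21.8, 50.2, 6.36 and 33.1 FPKM. Zinc carriers of the SLC30 family, which move zinc out of the cytosol, thus stood on both sides, with SLC30A7 at 0.936, 5.98, 0.459 and 10.7 FPKM against SLC30A5 described above. The magnesium transporter relative SLC41A3 changed sides, at 20.0, 7.69, 0.808 and 13.0 FPKM.

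Ion transporters (15 genes) had 3 members higher and 2 lower in both populations. The phosphate importers differed, since SLC20A2 was at 33.4, 50.5, 6.20 and 58.0 FPKM (0.58 and 3.03) and SLC20A1 was lower in AGO, as given above. The potassium-chloride cotransporter SLC12A7 was at 41.9, 20.8, 3.10 and 19.0 FPKM (-0.97 and 2.28), and its AGO averages were nearly equal. Among the 4 nucleoside transporters, SLC29A2 was higher in AGO in both populations and SLC29A1, at 29.6, 12.2, 43.7 and 14.4 FPKM, was lower (-1.22 and -1.53). Of 4 members of the nucleotide sugar family 2 were higher and 0 lower in control cells, with 3 and 0 in the miR-143 population.

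Few of the 10 sugar transporters differed, with 2 higher and 2 lower in control cells and 1 higher and 1 lower in miR-143 cells. Glucose uptake genes were represented by SLC2A3, at 65.8, 94.4, 28.8 and 77.8 FPKM (0.51 and 1.40), and by SLC2A1, at 22.2, 18.7, 24.2 and 31.1 FPKM (-0.24 and 0.35). SLC37A4, which moves glucose-6-phosphate into the endoplasmic reticulum, was at 30.4, 31.4, 26.1 and 25.1 FPKM, and its log2 ratios in the 4 comparisons lay between -0.31 and 0.04. Of the 5 members of the vitamin families SLC19, SLC23, SLC46 and SLC52, a count that leaves out SLC5A6 (0.67 and 0.87), 3 were 2-fold higher in AGO of control cells, 1 was so in the other population, and 0 were in both. The folate carrier SLC19A1 was at 23.2, 58.2, 22.7 and 19.9 FPKM (1.29 and -0.18). The 3 monocarboxylate carriers included the lactate carrier SLC16A1, at 22.4, 7.31, 18.2 and 13.3 FPKM (-1.49 and -0.43), and SLC16A5, listed at 0 in control cells and at 5.95 and 1.05 FPKM in miR143_IgG and miR143_AGO. The 18 members with other solutes had 2 higher and 2 lower in both populations, and of the 2 orphan members SLC10A3 was higher in both.

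Transporters outside the SLC families gave values in the same range. Of 13 ABC transporters, which are driven by ATP, 4 (30.8%, against 12.5% of all rows) were 2-fold higher in AGO in both populations. None was 2-fold lower in both (14.5% of all rows), and the medians were 1.52 and 0.33. Of 4 plasma membrane ATP pumps 0 were higher and 1 was lower in both. BSG, a chaperone of monocarboxylate carriers, was at 265, 176, 167 and 168 FPKM. The SLCO family had 2 members above the limit, of which none was higher or lower in both.

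The comparison of miR-143 with control cells in the AGO precipitates asks which SLC mRNAs were at higher or lower levels there with miR-143. As stated above, it cannot tell a change in AGO2 binding from a change in mRNA level. Of the 129 members 11 were 2-fold higher (8.53%, against 14.0% of all rows) and 19 were 2-fold lower (14.7%, against 11.5%), and 99 lay within 2-fold. The median log2 ratio was 0.05, against 0.11 for all rows. On the scale of FPKM + 1, no member was 10-fold higher (0.289% of all rows) and 1 was 10-fold lower (0.753% of all rows). This was the glutamate transporter SLC1A7, at 9.37 FPKM in control_AGO and listed at 0 in the other groups. Without the pseudocount SLC35A5 (4.99 and 0.0964 FPKM in control_AGO and miR143_AGO) was 51.8-fold lower. SLC24A1 (4.07 and 0.145 FPKM) was 28.1-fold lower. The highest such ratio the other way was 6.63, in SLC35A3. SLC1A7, SLC35A5 and SLC24A1 reached 1 FPKM in control_AGO only, and SLC35A3 in miR143_AGO only. These genes entered the members through the same values that make their ratios large. The levels of the members in both AGO precipitates had a Pearson correlation of 0.870 on the log2(FPKM + 1) scale, against 0.620 for both mock precipitates, again as a description over 129 genes. Over coding rows that are not members these values were 0.866 and 0.602.

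Members at 1 FPKM or more in both AGO precipitates and highest in miR-143 cells included SLC25A11 (2.04 and 6.95 FPKM in control_AGO and miR143_AGO), SLC25A44 (6.73 and 18.7), SLC30A5 (3.87 and 11.0), SLC33A1, which brings acetyl-CoA into the endoplasmic reticulum (1.14 and 3.84), and the zinc importer SLC39A10 (2.28 and 6.37). Their log2 ratios ran from 1.17 in SLC39A10 to 1.38 in SLC25A11. At the other end stood SLC29A3, a lysosomal nucleoside transporter (23.0 and 2.42 FPKM, log2 ratio -2.81), the aspartate-glutamate carrier SLC25A13 (37.6 and 5.15, -2.65), SLC6A8 (113 and 20.8, -2.39), SLC38A7 (29.6 and 4.88, -2.38), SLC38A1 (10.0 and 1.61, -2.07) and SLC12A9 (33.0 and 7.40, -2.02). By role, 0 of 21 amino acid transporters were 2-fold higher and 7 (33.3%) lower with a median of -0.36. Of 19 metal transporters 3 (15.8%) were higher and 0 lower with a median of 0.47. Over all rows 14.0% were higher and 11.5% lower. Among those 7, SLC1A7 and SLC38A9 were listed at 0 in miR143_AGO. Among those 3, SLC39A11 was at 0.541 FPKM in control_AGO. The plasma membrane and mitochondrial medians were -0.01 and 0.14.

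**Figure D4:**
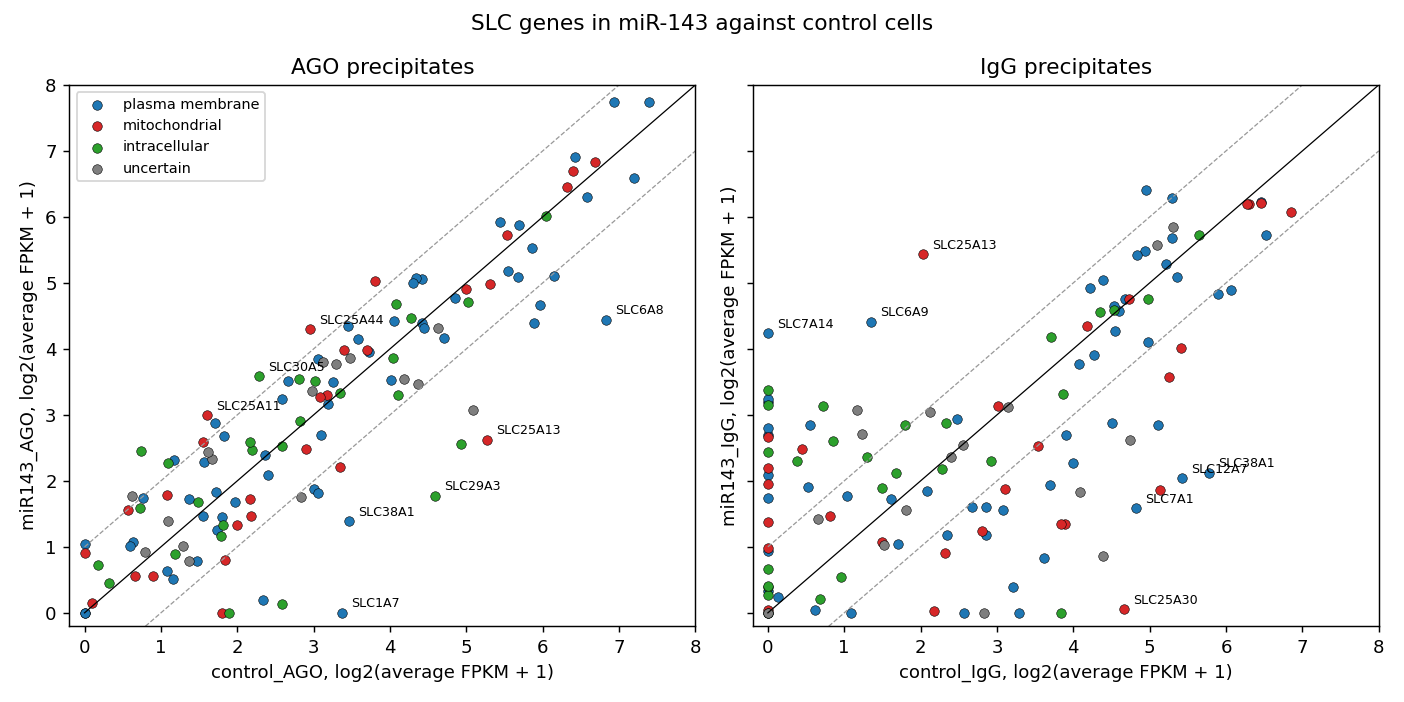
SLC genes in miR-143 cells (vertical) against control cells (horizontal), log2 of (average FPKM + 1), for the AGO precipitates (left) and the mock precipitates (right), with dashed lines at 2-fold on that scale. In the AGO panel 99 of 129 genes lie between the lines, in the mock panel 66.

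The mock precipitates, compared in the same way, differed more. There 27 members were 2-fold higher in miR-143 cells (20.9%, against 31.0% of all rows) and 36 were lower (27.9%, against 24.6%), with a median of 0.00 against 0.08 for all rows. Which side held more members depended on the setting, with 30 higher and 27 lower at an equal median of the groups and 39 of each with a pseudocount of 0.1. Past 10-fold were 3 higher (2.33%, against 5.99%), namely SLC25A13, SLC29A3 and SLC7A14. The 5 lower (3.88%, against 3.31%) were SLC25A30, SLC2A6, SLC38A1, SLC41A3 and SLC12A7. SLC7A14, SLC25A30 and SLC2A6 reached 1 FPKM only in the mock precipitate where they were high, and entered the members through it. SLC25A13 was at 3.10 FPKM in control_IgG and 42.4 in miR143_IgG, SLC38A1 at 53.9 and 3.35, and SLC12A7 at 41.9 and 3.10. The hexose transporter SLC2A6 was at 13.3 FPKM in control_IgG and listed at 0 in miR143_IgG. Short of 10-fold on the scale of FPKM + 1 was its relative SLC2A8, at 1.47 and 4.14 FPKM. So were the cationic amino acid carrier SLC7A1, at 27.2 and 2.00 FPKM, and SLC25A36, a mitochondrial pyrimidine nucleotide carrier, at 13.8 and 1.53. The low end of the values, higher in control_IgG as given above, moves with these differences, and its part in them was not tested.

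Sites for miR-143-3p were counted in the longest annotated 3′ UTR of each member. A site was an 8mer as above, or a 7mer with the letters TCATCTC or CATCTCA that was not part of an 8mer, on the transcript strand. At least 1 site was present in 40 of 129 members (31.0%), against 24.6% of the coding rows, and an 8mer in 9 members (6.98%), against 4.89%. The median 3′ UTR length was 1492 bases for members and 1334 bases for coding rows. The carriers of an 8mer were SLC25A15, SLC35A4, SLC38A2, SLC38A7, SLC39A10, SLC39A11, SLC41A1, SLC4A8 and SLC7A11.

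For miR-143 over control in AGO, the median log2 ratio was 0.13 over members that hold a site and 0.00 over the rest. Over all coding rows these medians were 0.20 and 0.11. Of the 40 members with a site 4 were 2-fold higher and 6 lower, and of the 89 without 7 were higher and 13 lower. Of the 1753 coding rows with a site 264 were higher and 164 lower, and of the 5369 without 670 were higher and 626 lower. The 9 members with an 8mer had a median of 0.19 and spread from SLC38A7, at -2.38, to SLC39A10, at 1.17. SLC39A11, a zinc transporter of the same family, was at 0.541 FPKM in control_AGO and 2.41 in miR143_AGO (1.15). SLC4A8, a bicarbonate cotransporter with 2 8mers, was at 1.97 and 3.86 FPKM, and SLC7A11, the cystine importer, also with 2, was at 2.33 and 1.40 FPKM. SLC35A4, SLC25A15, which carries ornithine, and SLC38A2 differed by less than 1.5-fold, and the magnesium carrier SLC41A1 was at 7.59 and 5.47 FPKM.

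In AGO over IgG, members with a site had the higher median in both cell populations. Their median was 0.82 against 0.21 for those without a site in control cells and 0.76 against -0.03 in miR-143 cells. In control cells 19 of 40 members with a site were 2-fold higher and 7 lower, and of those without 32 of 89 were higher and 27 lower. Coding rows there had 524 higher and 540 lower with a site, and 1660 higher and 1732 lower without. In miR-143 cells 15 of 40 members with a site were 2-fold higher and 3 lower, and of those without 25 of 89 were higher and 21 lower. Of the 1753 coding rows with a site 481 were higher and 469 lower, and of the 5369 without 1288 were higher and 1652 lower. Over all coding rows the medians with and without a site were both 0.00 in control cells, with 0.01 and -0.15 in the miR-143 population. For the 9 member genes with an 8mer the medians were 1.11 (control) and 1.21 (miR-143), against 0.14 and 0.08 for the 348 coding rows with an 8mer. Across the members the ratio had a Spearman correlation of 0.0179 (control) and 0.133 (miR-143) with 3′ UTR length, and of 0.233 and 0.179 with the GC content of the 3′ UTR, as a description over 129 genes.

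**Figure D5:**
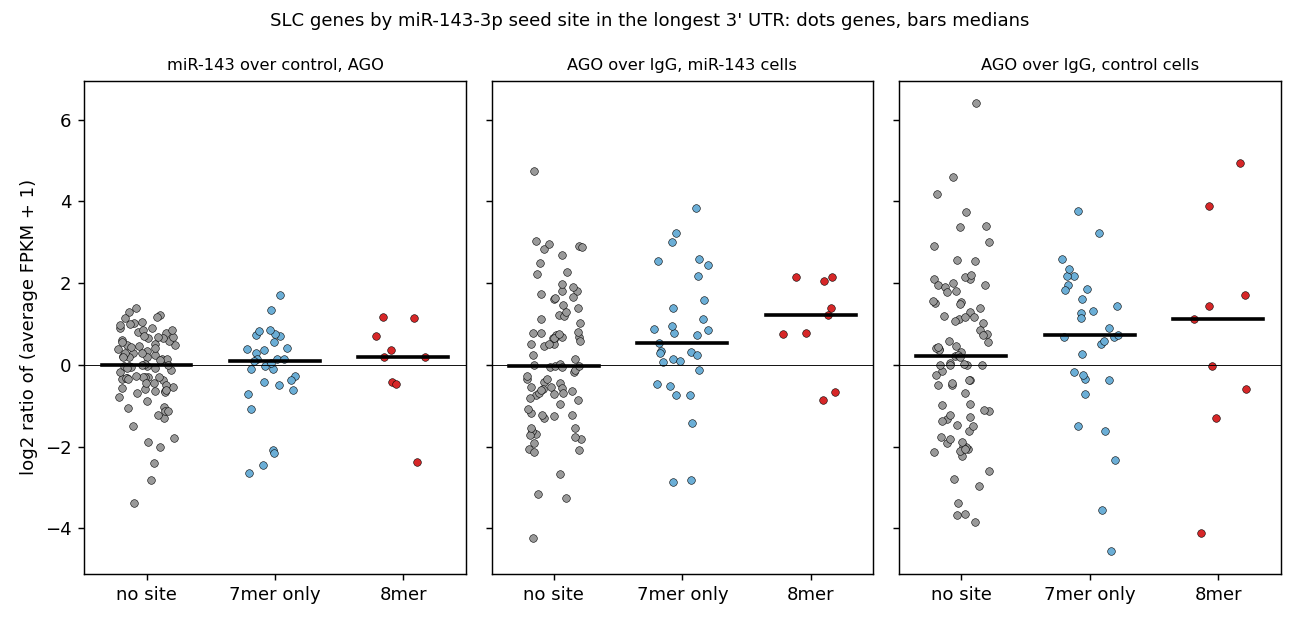
Log2 ratios of (FPKM + 1) for SLC genes without a miR-143-3p site, with 7mers only and with an 8mer in the longest 3′ UTR, in 3 comparisons, with a bar at each median. The groups overlap in each panel, and the 9 genes with an 8mer span from -2.38 to 1.17 in the comparison of the AGO precipitates.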

How the data were processed

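RNA from K562 cells was measured in 4 groups of 3 samples, grouped by the sample titles. For each group the authors deposited a table with the average FPKM of each gene row. The labels describe ribosomal RNA removal and random-primed cDNA, and the submitters' processing notes name TopHat, Cufflinks and hg38. Program versions, annotation and strand setting were not given in the sources used here. FPKM divides by each library's total, so a few abundant RNAs lower all other values. Total counts per sample were not analysed here and depth is unknown. Overlapping genes share rows. Of the members, 9 have names that occur in further rows, all at 0.

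Log2 ratios used a pseudocount of 1 over rows with a mean of 1 FPKM or more. The design had foreseen limma for values per replicate, and its form for averages, without a test, was used. Members, classes, roles and comparison lists were chosen with earlier results of these data known. Classes and roles came from general knowledge. All 129 members matched GENCODE 29 (GRCh38), which gave positions and 3′ UTRs. The low end of a group is the 10th lowest product of FPKM and transcript length over genes with 1 transcript. The scripts were tested on simulated data. Python 3.11.15, pandas 2.3.3, numpy 2.4.6 and matplotlib 3.10.9 were used.

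Genes were named by rule: the 10 highest means; the 6 highest and 6 lowest log2 ratios per comparison at 1 FPKM or more in both groups; the 10 highest and 5 lowest in AGO over IgG of both populations; 10-fold differences between AGO groups; 0 in a group with 10 FPKM or more in another; 8mer carriers; and the genes next to the limit. Of these, 1 gene is not reported here. SLC3A2, SLC29A1, SLC39A14, SLC30A3, SLC30A9, SLC25A45, SLC7A6, SLC2A1, SLC37A4, SLC19A1, SLC16A1, SLC27A5, SLC43A1, SLC41A3, SLC25A3, SLC25A4, SLC2A14 and the members that reached 1 FPKM in 1 group only were chosen after their values were seen. Alternatives were the pseudocount, the filter on low values and the scaling of groups. Medians over rows above 0 in both groups, 10-fold counts without a pseudocount, counts at a mean of 10 FPKM or more and shares without SLC1A5 and SLC40A1 were added after seeing the data.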

Additional observations from a re-analysis of the deposited data

Results flagged for a closer look

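For 10 members the AGO over IgG log2 ratio was 1 or more in one cell population and -1 or less in the other (7.75% of members, against 8.71% of all rows). The differences below are the ratio in miR-143 cells minus that in control cells. With 1 average per group they were not tested. SLC25A13 differed by -6.05, with all its averages above 3 FPKM (3.10, 37.6, 42.4 and 5.15 in the order control_IgG, control_AGO, miR143_IgG, miR143_AGO). SLC4A2 differed by -2.50, at 29.9, 70.0, 83.9 and 33.4 FPKM. SLC7A1 differed by 3.89, at 27.2, 5.0, 2.00 and 8.48 FPKM, and SLC41A3 by 4.23, at 20.0, 7.69, 0.808 and 13.0 FPKM.

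The others were listed at 0 in at least 1 group, and their size depends on the pseudocount. SLC29A3 differed by -6.20, with 0 in control_IgG and 23.0 FPKM in control_AGO. SLC38A9, a lysosomal amino acid sensor, differed by -5.04 and SLC25A35 by -4.46, and both were listed at 0 in control_IgG and miR143_AGO. SLC4A11 differed by -3.38 and the carnitine carrier SLC22A5 by -3.28, each with 0 in control_IgG. The sulfate carrier SLC26A1 differed by 3.56, with 0 in miR143_IgG.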

How the results depend on the processing

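No paired analysis was possible because each group is 1 deposited average, although the sample titles share replicate numbers between AGO and IgG, and leaving out replicates was not run for the same reason. Of 84 results under alternatives to the reported settings, 67 were kept. These were counts within 1.5 times the reported count, or class differences of the same sign that moved by less than a ratio of 1.5. Further, 14 counts moved by more and 3 differences reversed. Higher and lower counts were judged apart, so which side held more members could change among those kept. Among those kept, the class difference in control cells ranged from 0.202 (no filter) to 0.747 (mean of 5 FPKM), and that between AGO precipitates, -0.15 as reported, was -0.016 with no filter. With a pseudocount of 0.1 or 0.01, 19 members were 2-fold higher in miR-143 than in control AGO precipitates, and 17 of 165 with no filter on low values, against 11 as reported. With a mean of 5 FPKM or more (73 members) AGO over IgG gave 23 higher and 21 lower in control cells and 25 and 14 in miR-143 cells, and miR-143 over control gave 5 and 9 in AGO and 9 and 22 in IgG. With 1 FPKM or more in both groups, 22 of 81 members were higher and 23 lower in AGO over IgG in control cells, 25 and 16 of 91 in miR-143 cells, and 7 and 25 of 81 in the mock comparison. Fewer members were counted in these settings. The plasma membrane minus mitochondrial median in the mock comparison, -0.06 as reported, became 0.035 (mean of 5 FPKM), 0.001 (no filter) and 0.472 (1 FPKM in both), so it has no stable sign. Setting the groups to 1 median moved the all-row value by 0.27, 0.09, -0.11 and 0.23 in the 4 comparisons as ordered in the report, and scaling to the same upper quartile by 0.17, 0.20, 0.06 and 0.14. The files give no depth per library, and 25 members were listed at 0 in control_IgG.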
